A study of Salvelinus alpinus with 144 samples.

Results

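The gene ccdc122, which encodes a coiled-coil domain protein, was followed in 72 whole embryos of Arctic charr (Salvelinus alpinus), a salmonid that has split into several morphs within one Icelandic lake. It was 1 gene of 42433 in the deposited mRNA table, and it was chosen by its own values. Among the genes called higher in SBxSB than in PLxPL at 200 τs, it had the largest fold change of those with a mean of at least 1 CPM (reads scaled to a common library total) and with family means that did not overlap. The level at 200 τs and everything that follows from it are therefore given as a description.

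Embryos came from crosses between wild-caught parents and were reared in a common hatching tray. SB stands for the small benthic morph and PL for the planktivorous, limnetic morph, and the mother is named first. The crosses were the reciprocal hybrids SBxPL (benthic mother, limnetic father) and PLxSB (limnetic mother, benthic father), the pure benthic SBxSB and the pure limnetic PLxPL. Each of the 4 cross-types had 3 families, and from each family 3 siblings were sequenced at 200 τs and 3 at 150 τs, a measure of developmental time scaled to the pace of somite formation. Each of the 8 groups thus held 9 embryos, and siblings carry the letters A, B and C. The labels give batches 1, 2 and 3 for these letters, but the methods describe batches for the small RNA only and the mRNA as sequenced together, so the letters are not read as mRNA batches here. The families are numbered 1 to 3 within each cross-type. Siblings share their parents and the same families were sampled at both time points, so neither the 9 embryos of a group nor its time points are independent lineages.

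Coiled coils are bundles of α-helices that let proteins pair with one another, and several coiled-coil domain proteins serve in cilia, centrosomes or the cytoskeleton. No function is well established for CCDC122. In human the gene lies beside LACC1, an enzyme of macrophage metabolism, in a region that has been linked to susceptibility to leprosy. Nothing in these background facts was tested here. In whole embryos, fewer cells that use a gene and less RNA per cell cannot be told apart.

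Depth was even, from 11969598 to 17133123 counted reads per library. Of the 2556 pairs of libraries, the most similar still differed by 3.77 times the counting noise, so all 72 were treated as separate samples. The markers with a row in the table included the muscle genes myog and mylpf, and the summed level of each marker list overlapped between SBxSB and PLxPL at both time points. For muscle it ranged from 3313 to 9930 CPM in SBxSB and from 5918 to 10682 CPM in PLxPL at 200 τs. No gene of the neural or erythroid list was matched by name.

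One set of libraries went against its labels, and this bears on every value at 150 τs. Each library was compared with the 12 families of the other time point over the 300 genes that differed most between families relative to their siblings, ccdc122 left out. All 36 libraries at 200 τs were most like the family they were labelled with, whether the profiles came from the other libraries at 200 τs or from letters B and C at 150 τs. At 150 τs, the same held for 12 of 12 libraries of letter B and for 12 of 12 of letter C, but for 1 of 12 of letter A.

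The 11 other libraries of letter A at 150 τs each resembled a family of the reverse cross-type. The 2 libraries labelled SBxSB 1 and SBxSB 3 were nearest to PLxPL families (r = 0.726 and 0.466, against -0.22 and -0.16 with the labelled family). Those labelled PLxPL 1, 2 and 3 were nearest to SBxSB families (r = 0.720, 0.553 and 0.721, against -0.19, -0.29 and -0.20). The 3 libraries labelled SBxPL were nearest to PLxSB families, and the 3 labelled PLxSB to SBxPL families, with r between 0.480 and 0.741. No sample was moved to another group. Results at 150 τs are given with all 36 libraries as labelled and, as an alternative chosen after this check, without the 12 libraries of letter A.

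**Figure D1:**
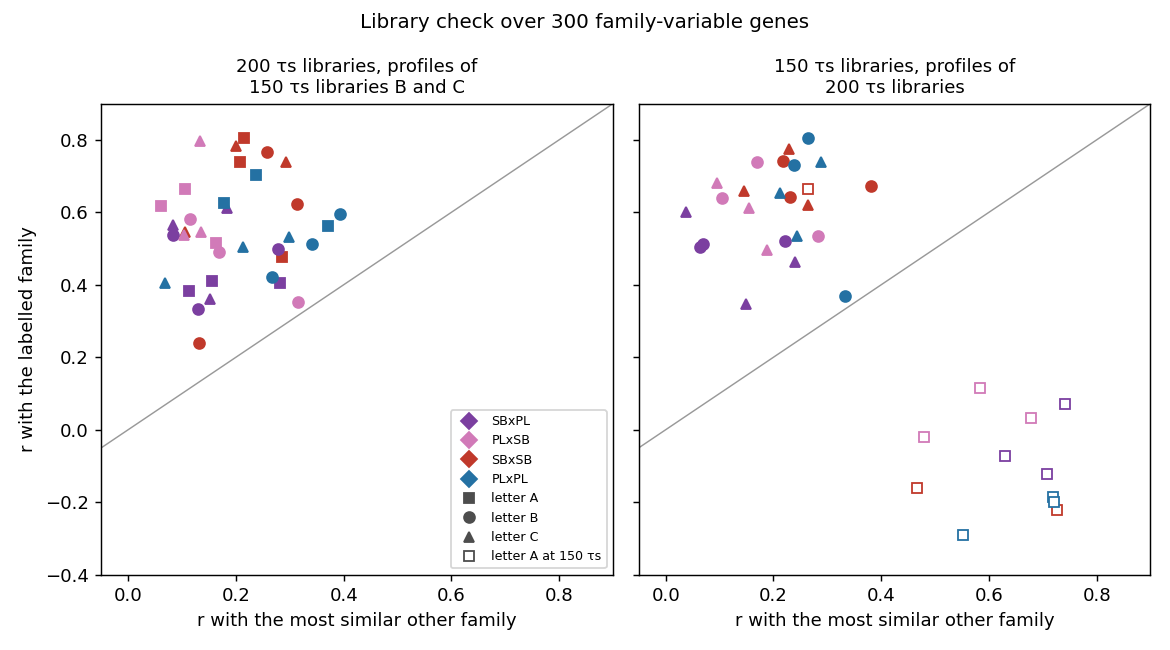
Correlation of each library with the profile of its labelled family (y axis) against that with the most similar other family (x axis), over 300 genes. Left, 200 τs libraries. Right, 150 τs libraries. Colours mark cross-types, shapes mark letters, and open squares are letter A at 150 τs. Of these 12, 11 lie far below the line of equal correlation, and all other libraries lie above it.

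At 200 τs, ccdc122 was expressed in both hybrids and in SBxSB and was near 0 in PLxPL. The mean was 2.03 ± 1.21 CPM in SBxPL, 2.48 ± 1.02 in PLxSB, 2.97 ± 2.23 in SBxSB and 0.214 ± 0.0943 in PLxPL (SD, n = 9 each). CPM here are normalised by TMM, which corrects library totals for composition. The 9 PLxPL embryos had between 1 and 6 reads each and 28 in all, with an exact Poisson 95% interval of 18.6 to 40.5 that covers counting error only. The values of PLxPL were thus near the limit of what single reads can resolve.

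The siblings of single families differed far more than depth did. In SBxPL family 1, embryos A, B and C had 0.190, 0.186 and 3.08 CPM. Family 2 of SBxPL had 2.30, 3.56 and 2.99 CPM, and family 3 had 2.50, 1.78 and 1.67 CPM. One family of this hybrid thus held both very low and ordinary embryos, and the other 2 held ordinary ones only.

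PLxSB looked much the same. Its family 1 had 2.32, 3.70 and 2.10 CPM in embryos A, B and C, and its family 3 had 3.49, 3.01 and 1.98 CPM. Family 2 had 2.32, 0.325 and 3.13 CPM, so that 1 of its 3 siblings was low.

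The pure benthic crosses spanned the widest range. SBxSB family 2 was high in every embryo, at 5.80, 4.30 and 4.20 CPM. Family 1 had 0.520, 2.52 and 0.474 CPM, and family 3 had 3.10, 5.75 and 0.0603 CPM. The last embryo, with 1 read, was the lowest of all 72, and its sibling was among the highest at this time point.

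In PLxPL no embryo at 200 τs rose above the others. Family 1 had 0.391, 0.148 and 0.0695 CPM, family 2 had 0.132, 0.245 and 0.178 CPM, and family 3 had 0.233, 0.260 and 0.270 CPM. The highest PLxPL embryo was below 8 of the 9 PLxSB embryos, 7 of the 9 SBxPL embryos and 8 of the 9 SBxSB embryos.

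**Figure D2:**
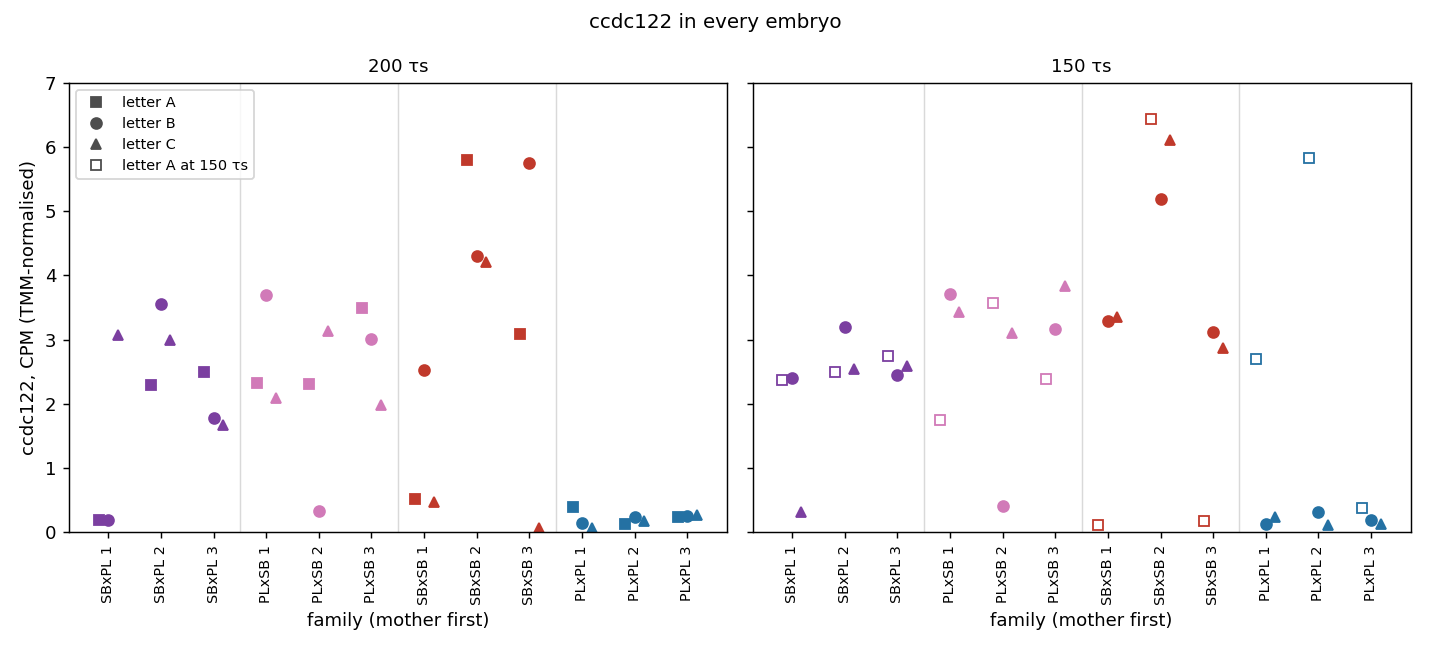
ccdc122 in each of the 72 embryos (y axis, TMM-normalised CPM) by family (x axis), with 200 τs on the left and 150 τs on the right. Points are single embryos, shapes mark the letter, and open squares are the libraries of letter A at 150 τs. PLxPL lies at or below 0.391 CPM apart from 2 open squares, and the other cross-types hold low embryos beside values of 1.67 CPM and above.

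Read counts fell into 2 ranges with nothing between them. Over the 72 embryos, 26 had at most 8 reads and 46 had at least 22. The nearest values on either side of the gap were 0.520 and 1.67 CPM, 3.22 times apart. The lower range held 3 of 18 SBxPL embryos, 2 of 18 PLxSB embryos, 5 of 18 SBxSB embryos and 16 of 18 PLxPL embryos. Without letter A at 150 τs, it held 3, 2, 3 and 15 of 15 in the same order, so every remaining PLxPL embryo was in it. The 2 PLxPL embryos in the upper range were the libraries labelled families 1 and 2, letter A, at 150 τs, and those libraries were nearest to SBxSB in the library check.

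At 150 τs the same order of cross-types was seen in letters B and C. Their mean was 2.25 ± 0.994 CPM in SBxPL, 2.94 ± 1.27 in PLxSB, 3.99 ± 1.33 in SBxSB and 0.185 ± 0.0809 in PLxPL (SD, n = 6 each). SBxSB had no low embryo among these 6, with a range of 2.87 to 6.10 CPM against 0.120 to 0.316 CPM in PLxPL. With letter A included, the means were 2.34 ± 0.805, 2.82 ± 1.12, 3.41 ± 2.27 and 1.11 ± 1.95 CPM for SBxPL, PLxSB, SBxSB and PLxPL (n = 9 each). Adding letter A thus widened both pure crosses and raised PLxPL, and it left the hybrids nearly where they were.

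SBxSB family 2 was again the highest family at 150 τs. Its embryos A, B and C had 6.44, 5.20 and 6.10 CPM. The library of letter A in this family was the one that matched its label. Family 1 had 0.120, 3.29 and 3.35 CPM and family 3 had 0.179, 3.11 and 2.87 CPM, where both low values belong to letter A.

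PLxPL showed the mirror image. Families 1, 2 and 3 had 2.70, 5.83 and 0.379 CPM in letter A. The same families had 0.122 and 0.242, 0.316 and 0.120, and 0.186 and 0.122 CPM in letters B and C. Within letter A at 150 τs, SBxSB minus PLxPL was -1.36 in mean log2 CPM, and it was 3.57 within letter B and 3.81 within letter C (3 embryos of each cross-type in each letter).

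The hybrids at 150 τs were close to their level at 200 τs. SBxPL families had 2.37, 2.40 and 0.309 CPM, then 2.49, 3.20 and 2.54 CPM, then 2.75, 2.45 and 2.60 CPM in embryos A, B and C. PLxSB families had 1.75, 3.70 and 3.43 CPM, then 3.56, 0.414 and 3.10 CPM, then 2.38, 3.17 and 3.84 CPM. In each hybrid 1 embryo was low, and it came from the same family that held low siblings at 200 τs: family 1 in SBxPL and family 2 in PLxSB.

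Cross-types were compared by the quasi-likelihood F-test of edgeR over 40311 genes, with Benjamini-Hochberg adjustment and a threshold of 0.1, as log2 fold changes. The question at 150 τs was whether the pure crosses differed earlier in development. With all libraries as labelled, SBxSB over PLxPL was 1.62 (standard error, SE, 0.54, adjusted p = 0.95) and was not called, while 0.0372% of all genes were. Without letter A it was 4.40 (SE 0.67, adjusted p = 6.1e-05), among 0.908% of genes called. Every SBxSB embryo was above every PLxPL embryo (6 against 6). Leaving out each of the 6 pure families in turn kept it between 4.06 and 4.58, with adjusted p from 2.1e-05 to 0.0034.

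These embryos share parents with those that chose the gene, so the result at 150 τs is a repeat in siblings, not in other families. Summing the siblings of a family into 1 library left the value at 4.42 (adjusted p = 0.00072) without letter A. Over the 3 against 3 family means, a two-sided exact permutation test gave p = 0.1 both with and without letter A, the smallest this design allows.

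Both hybrids stood above PLxPL once letter A was left out. SBxPL over PLxPL was 3.56 (SE 0.69, adjusted p = 0.0057), with 0.276% of genes called, and 5 of 6 SBxPL embryos lay between 2.40 and 3.20 CPM. PLxSB over PLxPL was 4.0 (SE 0.68, adjusted p = 0.0020), with 0.117% of genes called. The lowest SBxPL embryo, at 0.309 CPM, lay just below the highest PLxPL embryo, at 0.316 CPM, and the lowest PLxSB embryo, at 0.414 CPM, just above it. Without letter A and with siblings summed, edgeR adjusted p was 0.065 for SBxPL and 0.0046 for PLxSB. Leaving out each PLxPL family instead gave 0.074 to 0.087 for SBxPL and 0.020 to 0.032 for PLxSB. Over the family means, the exact permutation p was 0.1 for each hybrid, the smallest this design allows. These PLxPL embryos are siblings of those that chose the gene, so these comparisons are not independent of that choice. With all libraries as labelled, neither was called: SBxPL over PLxPL was 1.09 (SE 0.55, adjusted p = 1.0, 0.124% of genes called) and PLxSB over PLxPL was 1.35 (SE 0.55, adjusted p = 0.92, 0.0223% of genes called).

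Neither hybrid was called different from SBxSB. Without letter A, SBxPL over SBxSB was -0.85 (95% interval -1.79 to 0.10, edgeR adjusted p = 0.54, 0.553% of genes called). PLxSB over SBxSB was -0.40 (interval -1.33 to 0.52, adjusted p = 0.84, 0.657% of genes called). With all libraries they were -0.54 and -0.27 (adjusted p = 1.0 and 0.94, with 0.159% and 0.0447% of genes called). These intervals include both no difference and a level well below that of SBxSB. Without letter A, SBxPL family means of log2 CPM ran from 0.07 to 1.58, below those of SBxSB at 1.64 to 2.53. That difference was -0.96 (exact permutation p = 0.1, the smallest this design allows). For PLxSB over SBxSB it was -0.60 (exact permutation p = 0.6). With all libraries, the exact permutation p was 0.8 for each hybrid. Leaving out SBxSB family 2 gave edgeR values of 0.12 for SBxPL and 0.41 for PLxSB with all libraries. Without letter A as well, they were -0.50 and -0.06. The SBxSB embryos are siblings of those that chose the gene, so these comparisons are not independent of that choice either.

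**Figure D3:**
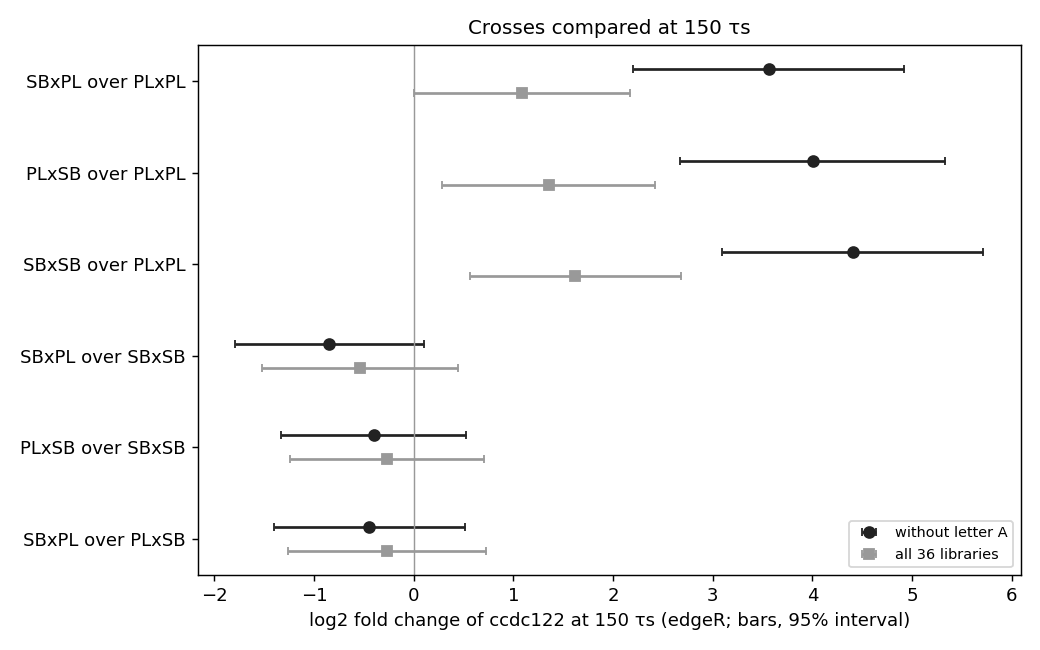
log2 fold change of ccdc122 between cross-types at 150 τs (x axis), without letter A (black circles) and with all 36 libraries as labelled (grey squares). Bars are 95% intervals of the edgeR fit. The 3 comparisons with PLxPL lie between 3.56 and 4.40 without letter A and between 1.09 and 1.62 with it, and the 3 comparisons without PLxPL include 0 in both.

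The reciprocal hybrids have the same 2 morphs as parents in opposite roles, so their comparison asks about the direction of the cross. At 200 τs, SBxPL over PLxSB was -0.29 (SE 0.52, 95% interval -1.31 to 0.74, edgeR adjusted p = 0.85), while 1.48% of genes were called. At 150 τs it was -0.27 with all libraries (adjusted p = 0.99, 0.102% of genes called) and -0.44 without letter A (interval -1.40 to 0.52, adjusted p = 0.77, 0.172% of genes called). No difference was called at either time point.

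The position of the hybrids between the pure crosses depended on the scale. It also leaned on SBxSB family 2, whose mean was 4.77 CPM at 200 τs, against 1.17 and 2.97 CPM in families 1 and 3. On the CPM scale at 200 τs, SBxPL lay 65.9% and PLxSB 82.4% of the way from PLxPL to SBxSB, above the midpoint of 1.59 CPM. By means of the log2 CPM of single embryos, which weigh the low embryos of SBxSB more, they lay 89.7% and 109% of the way. For letters B and C at 150 τs, SBxPL lay 54.3% and PLxSB 72.6% of the way in CPM, and 73.9% and 83.7% by means of log2 CPM. With all libraries at 150 τs they lay 53.7% and 74.4% of the way in CPM, but 96.8% and 108% by means of log2 CPM.

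In each of these cases PLxSB lay further along than SBxPL, with overlapping embryos. The hybrids were also compared with the mean of the pure crosses on the log2 scale. With unequal crosses, that mean lies below their midpoint in CPM. A hybrid level at the CPM midpoint thus gives a positive value. Hybrids minus the mean of the pure crosses at 150 τs was 0.41 with all libraries (SE 0.37, edgeR adjusted p = 0.90, 0.0521% of genes called) and 1.58 without letter A (SE 0.43, adjusted p = 0.23, 0.0348% of genes called). Neither was called, but leaving out SBxSB family 2, the highest family, as well as letter A gave 1.75 (adjusted p = 0.096). The pure embryos at 150 τs are siblings of those that chose the gene, so these values and their p-values are not free of that choice. At 200 τs the fitted value was 1.46 (SE 0.45), given as a description.

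The fitted log2 fold changes at 200 τs, also a description, were 3.18 for SBxPL over PLxPL (SE 0.73) and 3.47 for PLxSB over PLxPL (SE 0.72). They were -0.54 (SE 0.51) and -0.26 (SE 0.51) for SBxPL and PLxSB over SBxSB. Without SBxSB family 2, the highest family, these 2 values were -0.03 and 0.24. The 3.72 of SBxSB over PLxPL, by which the gene was chosen, had a 95% interval of 2.34 to 5.10, which does not allow for that choice. Within letters A, B and C of these same embryos, the difference in mean log2 CPM was 2.66, 3.58 and 1.45. The split by letter is a description and not a check of the choice.

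Whether the morph of the mother or of the father went with the level at 150 τs was tested over the 12 family means with a two-sided exact permutation test of 6 against 6. In mean log2 CPM, families with an SB father were at 1.30 and those with a PL father at 0.18 (difference 1.12, exact permutation p = 0.076, adjusted over both tests 0.15). Families with an SB mother were at 1.18 and those with a PL mother at 0.29 (difference 0.89, exact permutation p = 0.19, adjusted 0.19). Without letter A the means were 1.68 and -0.34 by the father (difference 2.03, exact permutation p = 0.017, adjusted 0.035) and 1.5 and -0.16 by the mother (difference 1.66, exact permutation p = 0.082, adjusted 0.082). The PLxPL families were on the PL side of both tests and carried the lowest values, and the SBxSB families were on the SB side. The gene was chosen by siblings from these same pure families. The p-values of both tests are therefore not free of that choice and are given as a description. Only the hybrids changed sides between the tests. SBxPL minus PLxSB in family means was -0.23 with all libraries and -0.36 without letter A (exact permutation p = 0.5 for each). The 2 tests can therefore not separate the morph of the father from that of the mother. With all libraries, leaving out SBxPL family 2 or 3 gave an exact permutation p of 0.037 or 0.041 for the father, before adjustment. Over the 12 families left out in turn, it ran from 0.037 to 0.17.

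No change of ccdc122 with time was called in the hybrids, in comparisons that called 40.8% to 49.5% of all genes. The 200 over 150 τs change was -0.21 in SBxPL (SE 0.52, edgeR adjusted p = 0.79, 49.5% of genes called) and -0.19 in PLxSB (SE 0.51, adjusted p = 0.81, 44.3% of genes called). Without letter A it was -0.10 in SBxPL (95% interval -0.99 to 0.80, adjusted p = 0.90, 42.4% of genes called) and -0.27 in PLxSB (interval -1.15 to 0.60, adjusted p = 0.68, 40.8% of genes called). The change did not differ detectably between the hybrids (-0.02, SE 0.72, adjusted p = 1.0), a test in which 0% of genes were called by edgeR, none by DESeq2, and 2207 had an unadjusted p under 0.05.

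In the pure crosses the change with time is a description, because the level at 200 τs was selected on. It was -0.20 in SBxSB with all libraries and -0.39 without letter A. In PLxPL it was -2.30 with all libraries and 0.27 without letter A. The apparent fall in PLxPL thus rested on the libraries labelled PLxPL, letter A, at 150 τs, which resembled SBxSB families.

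Family means at the 2 time points were set side by side as a description, since the pure families at 200 τs entered the choice of the gene. After the mean of each cross-type was removed, family means of log2 CPM at 200 and 150 τs had a Pearson r of 0.787 and a Spearman rho of 0.713 over 12 families. Without the 2 families farthest from the median at 150 τs, r was 0.814. Without letter A, r was 0.840 and rho 0.909. In CPM rather than log2 CPM, r was 0.768 and rho 0.552.

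The spread within cross-types was divided into parts between and within families. Between-family differences made up 23.6% of the spread of log2 CPM within cross-types at 150 τs with all libraries (permutation p = 0.46, adjusted over both tests 0.46) and 47.6% without letter A (p = 0.032, adjusted 0.065). For the hybrids at 200 τs the share was 40.6% (permutation p = 0.18, adjusted 0.35 beside the test with all libraries and 0.18 beside that without letter A). The rest of the spread lay between siblings. Such a share is above 0 even without family effects, and it is higher with fewer siblings per family. The shares with and without letter A can therefore not be compared, and only the permutation p takes this into account.

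**Figure D4:**
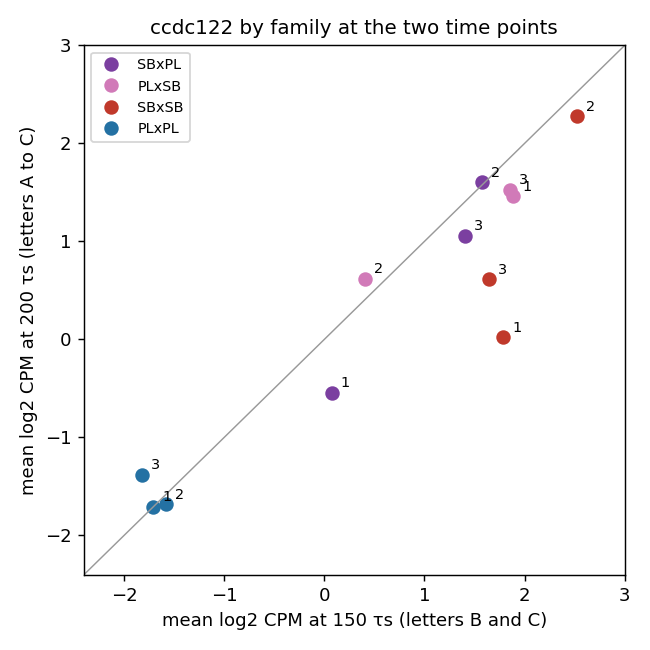
Mean log2 CPM of ccdc122 in each family at 200 τs (y axis, letters A to C) and at 150 τs (x axis, letters B and C). Numbers are family numbers, colours mark cross-types, and the line marks equal levels. PLxPL families lie between -1.82 and -1.38 on both axes, and SBxPL 1 and PLxSB 2 are the lowest families of their hybrids at both time points.

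The genes whose pattern was most like that of ccdc122 were named by their Pearson correlation of log2 CPM over the 72 embryos, among the 29447 other genes with a mean of at least 1 CPM. The 10 highest were LOC111982414 (r = 0.629), LOC111968124 (0.626), LOC111979690 (0.626), LOC111974562 (0.592), LOC112078756 (0.575), LOC111970262 (0.557), LOC111951262 (0.547), LOC111957206 (0.533), LOC111960029 (0.528) and LOC111974524 (0.525). None of these is annotated with a name in the sources used. The 3 lowest were gnl2 (-0.62), which encodes a nucleolar GTPase of ribosome assembly, LOC111970875 (-0.58) and LOC111952828 (-0.57). The embryos share families, so these values are a description with no test.

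What these genes shared with ccdc122 lay between cross-types and families, not between siblings. LOC111982414 averaged 18.9 CPM in SBxPL, 16.8 in PLxSB, 22.4 in SBxSB and 1.83 in PLxPL at 200 τs. Its SBxSB range of 11.2 to 37.3 CPM did not overlap the PLxPL range of 1.17 to 2.47 CPM, and none of its SBxSB embryos was as low as PLxPL. LOC111979690 averaged 4.69, 6.69, 10.6 and 1.69 CPM in that order of cross-types. Its PLxPL embryos reached 8.06 CPM, above both hybrid means, and its SBxSB embryos started at 9.02 CPM. The level of gnl2 ran the other way, at 2.18, 3.65, 2.25 and 11.5 CPM.

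With the mean of each family and time point removed and letter A at 150 τs left out, the correlations of the 10 most similar genes dropped to between -0.22 and 0.24. None of the 10 was then among the 10 highest, which were led by LOC111952063 (r = 0.629). Among the 3 least similar genes, LOC111952828 stayed at -0.39, while gnl2 was at -0.11 and LOC111970875 at -0.03. Of the 10 named genes, 9 stayed among the 10 highest without letter A, 7 by rank correlation, 5 over the 24 family means and 2 over the 36 embryos at 200 τs alone, where lactb2 led (r = 0.629).

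**Figure D5:**
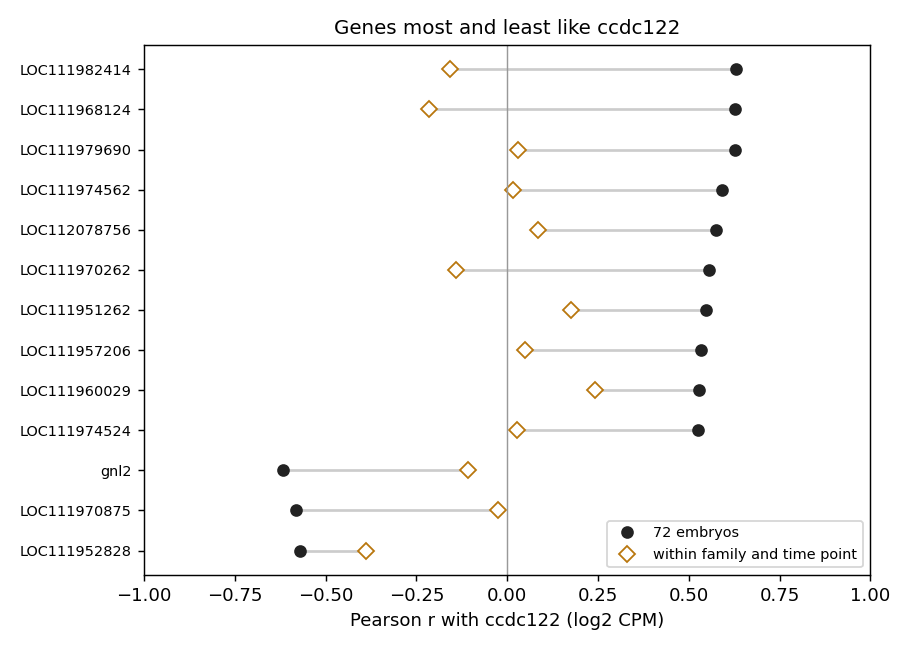
Pearson correlation with ccdc122 (x axis, log2 CPM) of the 10 most and 3 least similar genes (y axis), over 72 embryos (black circles) and within families and time points (open diamonds, 60 embryos). The circles lie beyond 0.50 in size, and the diamonds of the 10 most similar genes lie between -0.22 and 0.24. The diamond of LOC111952828, among the least similar, lies at -0.39.

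No chromosome position for ccdc122 was found in the reference table at hand, so the genes beside it were taken as the 5 rows to each side in the deposited table. In that table, rows at most 5 apart with a symbol in the reference fell on the same chromosome in 84.0% of 1209 pairs. This is a share over the whole table. It does not show that the rows used here lie beside ccdc122 in the genome. Of the 10 neighbouring rows, 9 had enough reads to be tested, among them wbp4, a splicing factor gene. At 200 τs, 0 of 9 were called by edgeR in SBxSB over PLxPL and 0 had an unadjusted p under 0.05, and DESeq2 also called 0, beside 8.70% of all genes called higher in SBxSB and 8.85% lower.

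Without letter A, 1 of the 9 rows was called in SBxSB over PLxPL at 150 τs, where 0.908% of all genes were called. This was LOC112075154, the row next to ccdc122, at 2.00 on the log2 scale (SE 0.54, edgeR adjusted p = 0.069). Its counts were low, with 3 to 8 reads in SBxSB and 0 to 4 in PLxPL. With all libraries it was 1.44 and was not called (adjusted p = 0.66). At 150 τs, 3 of the 9 rows had an unadjusted edgeR p under 0.05, both with and without letter A. Over all genes this held for 1553 of 40311 with letter A and 4854 of 40179 without it. The level of LOC112075154 followed that of ccdc122 among siblings with r = 0.402. For LOC112075150 and LOC112075152, the 2 nearest rows on the other side, r was 0.341 and 0.339. These correlations are a description with no test, and LOC112075154 had at most 16 reads in a library. Overlap between these rows and ccdc122 was not examined, and the stated counting settings include no strand option, so reads from overlapping genes on opposite strands cannot be told apart.

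None of the genes that neighbour CCDC122 in the human genome was called where ccdc122 was chosen. Of 8 that were found by name, among them lacc1, enox1 and epsti1, 0 were called by edgeR or DESeq2 in SBxSB over PLxPL at 200 τs, and 0 had an unadjusted p under 0.05 in either. Over all 40311 genes, edgeR called 8.70% higher and 8.85% lower, and 10659 had an unadjusted p under 0.05. A list of 8 is too short for 0 to be told apart from these shares. The median log2 fold change of the 8 was 0.01, beside -0.03 over all genes. For lacc1 it was 0.27 (SE 0.20, edgeR adjusted p = 0.41).

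Of the 53 other genes named ccdc, 11 rose and 5 fell in SBxSB against PLxPL at 200 τs by edgeR, beside 8.70% of all genes called higher and 8.85% called lower, and their median was 0.01. These genes share a structural motif, not a pathway. The largest increases among those with at least 1 CPM were in ccdc112 (21.7 ± 6.95 CPM in SBxSB and 8.91 ± 3.48 in PLxPL, SD, n = 9 each, log2 fold change 1.28), ccdc25 (0.47) and ccdc167 (0.42). The largest decreases were in ccdc148 (1.74 ± 0.633 CPM in SBxSB and 3.81 ± 0.963 in PLxPL, -1.12), ccdc115 (-0.33), an assembly factor of the proton pump V-ATPase, and ccdc66 (-0.27), a centrosome and cilium protein. The fold change of ccdc122 was larger than any of these, as the choice of the gene fixed. ccdc66 was no longer called without letter A (adjusted p = 0.11).

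At 150 τs, 0 of the 53 were called with all libraries by edgeR or DESeq2, with 0 and 2 at an unadjusted p under 0.05. Without letter A, 1 was called, ccdc107 (0.37, SE 0.10, edgeR adjusted p = 0.093), beside 0.908% of all genes. In that fit, 11 of the 53 had an unadjusted edgeR p under 0.05, beside 4854 of all 40179 genes. With all libraries 0.0372% of all genes were called. Between the reciprocal hybrids at 200 τs, 1 was called, ccdc47, at -0.31 (SE 0.07, adjusted p = 0.025), lower in SBxPL than in PLxSB, beside 1.48% of all genes called. It encodes a calcium-binding protein of the endoplasmic reticulum. With siblings summed, 0 of the 53 were called between the reciprocal hybrids.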

How the data were processed

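The members and lists were chosen with earlier results of these data known. The authors aligned the mRNA reads to a Salvelinus genome with STAR, counted them per gene with featureCounts, and deposited raw counts, 1 column per embryo. The counting settings in the methods (-p -B -C) include no strand option. The deposited small RNA counts and a list of their codes were not used.

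Cross-type, family, letter and time point came from the labels. Genes with at least 10 reads over the 72 libraries were kept, and depth ranged from 11969598 to 17133123 reads, so that 1 CPM is about 12 to 17 reads. Counts were TMM-normalised and fitted with 8 group means in edgeR 4.0.16 (quasi-likelihood F-test, Benjamini-Hochberg, threshold 0.1) in R 4.3.3. Standard errors are the fold change over the square root of F. log2 CPM used a prior count of 2. Permutation tests were run in scipy 1.17.1 and numpy 2.4.6, with 100000 resamples where not exact. The fits were tested on simulated counts drawn independently for each library, with no family effects.

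Alternatives were DESeq2 1.42.0, its size factors, totals alone, a minimum of 1 read, siblings summed, the letter as a replicate block, the compared groups only, and each family left out. Leaving out letter A at 150 τs, and taking table rows as neighbours, were chosen after seeing the data. Named were ccdc122, its neighbours, the 10 most and 3 least correlated genes, and the 3 largest called increases and decreases among other ccdc genes.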

Additional observations from a re-analysis of the deposited data

Results flagged for a closer look

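Within its group of 9, the library labelled PLxPL family 2, letter A, at 150 τs stood far above the rest, at 5.83 CPM against 2.70 for the next. In SBxPL at 150 τs, embryo C of family 1 was far below the others at 0.309 CPM, both among all 9 and among the 6 of letters B and C. In PLxSB at 150 τs, embryo B of family 2 was far below the other embryos of letters B and C at 0.414 CPM. Each gap was larger than Dixon's 95% critical value, which assumes normally distributed values. Reads of ccdc122 fell into 2 ranges with nothing between them, so a rate of 1 in 20 groups need not hold here. In all, 12 sets of libraries were examined, 4 of them overlapping others.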

How the results depend on the processing

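Leaving out letter A at 150 τs changed the most. SBxSB, SBxPL and PLxSB over PLxPL at 150 τs became 4.40, 3.56 and 4.0 and were then called. The paternal difference became 2.03 and the between-family share at 150 τs 47.6%, both then under 0.05 before adjustment. That share is not comparable with the one from all libraries, since fewer siblings per family raise it by themselves. The paternal test includes the pure families whose siblings chose the gene. The change with time in PLxPL turned to 0.27. In CPM, the family correlation was 0.768, against 0.787 in log2 CPM. With siblings summed, 7 of the 53 other ccdc genes were called in SBxSB over PLxPL at 200 τs, not 16. The letter as a replicate block gave 1.73 for SBxSB over PLxPL at 150 τs and -0.26 for SBxPL over PLxSB at 200 τs and changed no call of ccdc122. Leaving out each family, the paternal difference was 0.77 to 1.38, and hybrids minus pure crosses without letter A 1.47 to 1.75. Of 391 alternative values, 378 kept their direction and side of the threshold or, without a test or a call, moved by less than 1.22. That limit was the mean SD within groups, and for counts the limit was 1.5 times. The 378 take in values at 200 τs that the gene was chosen on, and sign changes of uncalled values under that limit. They are therefore not a measure of robustness. PLxPL had 1 to 6 reads per embryo apart from 2 libraries of letter A at 150 τs, with 35 and 96, which limits fold changes against it.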
